A study of Mus musculus with 6 samples.

Results

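The insulin signaling pathway was followed in mouse cells put through adipocyte differentiation, by the genes that the authors' own pathway column assigns to it. The members were the rows of the deposited expression table whose KEGG annotation (KEGG is a database of pathway maps) holds the insulin signaling map, 54 rows in all, from which *Fasn*, *Acaca*, *Lipe*, *Hk2*, *Pfkl* and *Gys1* were set aside where present, as 5 of them were. This left 49 members among the 4864 genes analysed, which are a stretch of the table in the order of Ensembl numbers. Pathway genes outside that stretch were not analysed here. Of the 49 members, 43 had a mean of at least 0.5 FPKM (fragments per kilobase of gene, scaled to the library total) over the libraries and entered the test.

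The cells were adipose-derived stem cells (ADSCs), the precursors of adipocytes, from the subcutaneous adipose tissue of wild-type mice, which the study's methods give as male C57BL/6J. The vehicle group, titled Control in the labels, was put through primary adipocyte differentiation, and the NJT-2 group through the same differentiation with NJT-2 added, with 3 libraries in each group. Values given for a group are listed in the order of its replicates 1, 2 and 3. NJT-2 is saikosaponin A, a plant saponin studied as a ligand of PPARγ, the nuclear receptor that drives adipocyte formation. The study used these libraries to examine genes of lipid and glucose metabolism and of beige fat. Neither the dose, the day of harvest nor the age of the donor mice is in the labels, and the labels do not say whether the libraries of a group came from separate cultures or animals. The p-values therefore measure the spread between these libraries, which may be technical. By the study's methods, both groups share a differentiation medium with insulin, dexamethasone, IBMX (an inhibitor of cAMP breakdown), indomethacin and triiodothyronine. No library of cells kept without insulin or given it acutely was analysed, so that the values describe transcript levels of the pathway and not its activity.

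Insulin binds a receptor tyrosine kinase on the cell surface, which phosphorylates docking proteins. From these, a lipid kinase branch (PI3-kinase, PDK1 and Akt) brings the glucose transporter GLUT4 to the membrane and turns on glycogen and protein synthesis, and a Ras-MAPK branch acts on growth and translation. In fat cells an additional branch runs through the adaptor APS and Cbl in lipid rafts to the small GTPase TC10, while cAMP signaling works against insulin in the control of fat breakdown. Adipocytes gain GLUT4 and insulin receptors as they mature, and are among the most insulin-responsive cells of the body.

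Counts on the analysed genes summed to between 16093037 and 28929673 per library, so that for most members the spread between replicates and not counting error set the precision (common biological coefficient of variation 0.504 in edgeR). A library in each group stood apart. By FPKM, vehicle replicate 1 was the lowest vehicle library for 36 of the 43 tested members (66.2% of all 3705 tested genes) and lay under 0.5 times both other vehicle libraries for 23 (34.9%). NJT-2 replicate 2 lay outside the range of NJT-2 replicates 1 and 3 for 41 (94.4%). Positions and overlaps of libraries are by FPKM throughout, whereas edgeR's log2 fold changes rest on counts scaled by TMM factors. The factor was 0.77 for vehicle replicate 1 and 0.967 to 1.11 for the others. On scaled counts, vehicle replicate 1 had a median log2 difference from the vehicle mean of -0.40 over the members. Over all tested genes it was -0.01, so that the low position by FPKM over all genes was not seen there. The analysed adipocyte markers, 5 of a list of 10, were all higher with NJT-2, and their summed FPKM was 76.7 to 100 in vehicle libraries and 1060, 249 and 835 in NJT-2 libraries. With vehicle, most of that sum was *Lpl*, at 55.14 to 78.79. *Adipoq* was at 0.38 to 0.50 FPKM with vehicle and 22.04 to 64.63 with NJT-2, and *Pparg* at 1.06 to 6.41 and 13.01 to 37.26. The 4 analysed macrophage markers of a list of 8 also all had log2 fold changes above 0, with sums of 9.67 to 12.7 and 31.4 to 58.7. Of these, *Csf1r* was level (0.03, standard error 0.41). The 4 preadipocyte and fibroblast markers of a list of 9 all had values below 0, with sums of 197 to 793 and 397 to 446. Among them *Col1a1*, most of the sum, and *Cd34* differed by less than their standard errors (-0.21, 0.49 and -0.42, 0.46). The endothelial list (2 of 6 analysed) reached at most 2.42 and the skeletal muscle list (1 of 6) at most 0.7. No analysed marker was at 0 in every library. More cells of a type and more RNA per cell cannot be told apart in bulk libraries, and the part of these markers in the members' values was not tested.

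Pathway members lay more often above than below their vehicle level with NJT-2, and a difference beyond the limits of the test was found for a kinase of the MAPK branch alone. *Mknk2* rose, and no member fell by the same limits (a log2 fold change beyond 1 in either direction and a Benjamini-Hochberg adjusted p under 0.05 over all 3705 tested genes, edgeR's quasi-likelihood test). Of all tested genes, 0.567% were called higher and 0.135% lower. The log2 fold change was above 0 for 30 of the 43 tested members, 69.8%, against 50.8% of all tested genes, with a median of 0.51 against 0.02. At an unadjusted p under 0.05, 8 members were higher (18.6%, against 8.04% of all tested genes) and 2 were lower (4.65%, against 9.72%). All 3 NJT-2 libraries lay above all 3 vehicle libraries for 11 members (25.6%, against 14.4% of all tested genes) and below them for *Bad* and *Hras* (4.65%, against 11.5%). DESeq2, a test that made more calls on this table (4.4% of all tested genes higher and 3.4% lower), called 5 members higher, *Mknk2*, *Slc2a4*, *Prkar2b*, *Sh2b2* and *Insr*, and none lower. Without vehicle replicate 1 the members' median was 0.26 and that of all tested genes -0.02, and with 2 libraries a group, leaving out the library of each group that stood apart (an alternative chosen after the data were seen), it was 0.18 against -0.03. The plot of log2 fold changes by role shows the members in the branches used below.

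**Figure D1:**
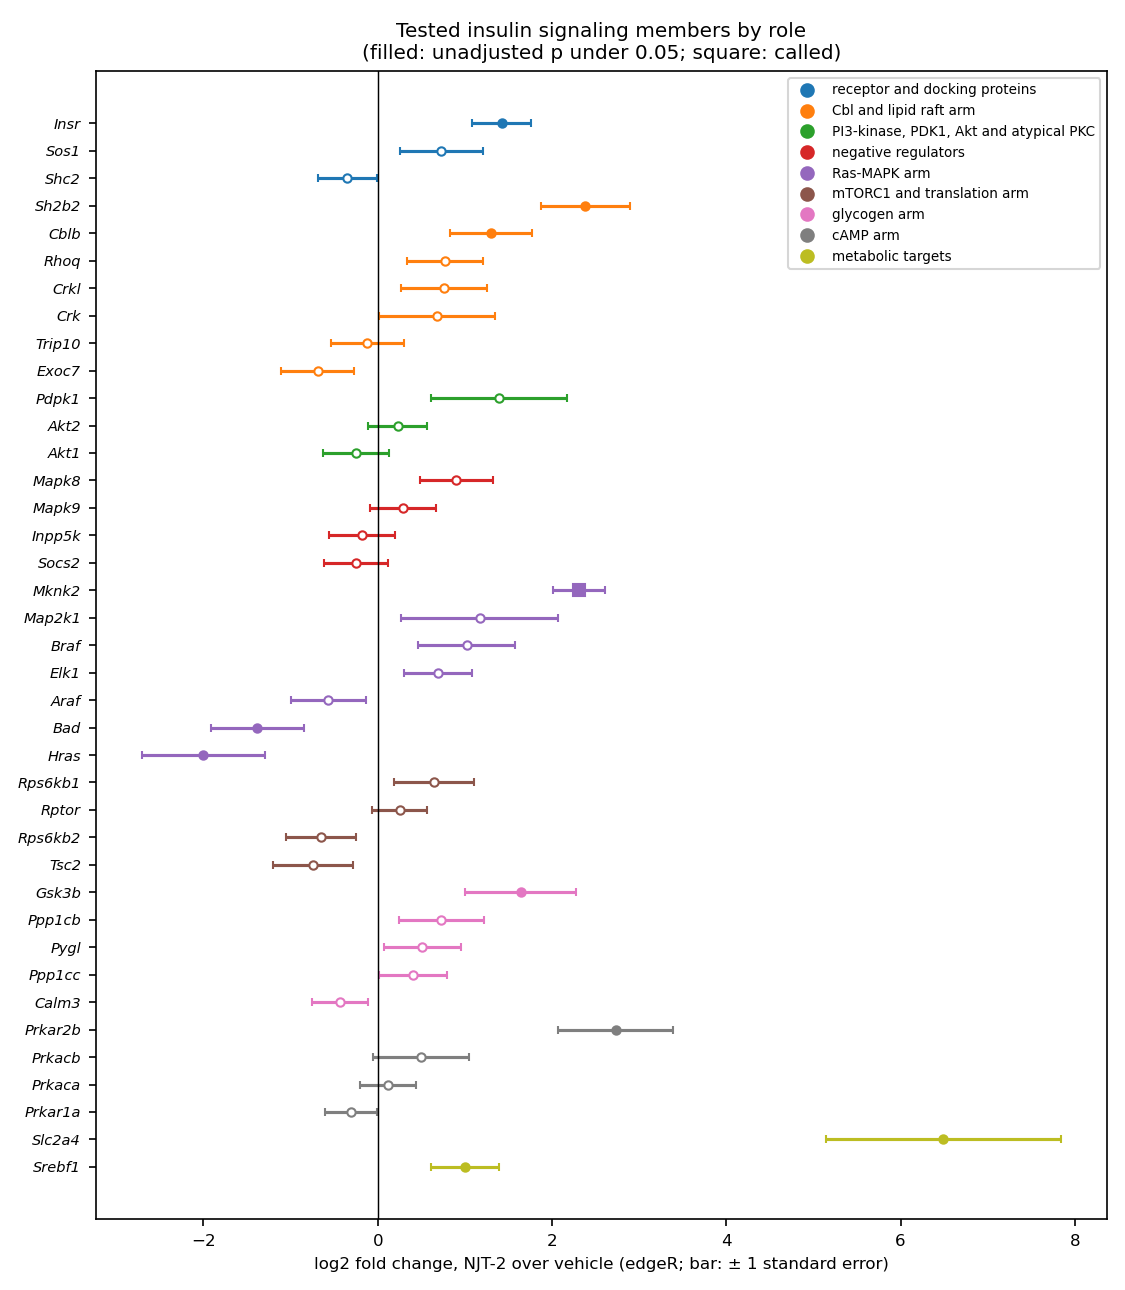
Log2 fold change (NJT-2 over vehicle, edgeR) of 39 tested members on the horizontal axis, with bars of ± 1 standard error, ordered by role and coloured by it, 3 libraries per group. Filled points had an unadjusted p under 0.05 and the square is *Mknk2*, the called member, at 2.31, while *Slc2a4* lies farthest right at 6.49 with a standard error of 1.35.

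Members with a large difference came from several branches, and some shared a branch. The upstream sequence of the genes is shown for the 3 members with the smallest p that had an entry in the promoter table from RefSeq (build GRCm38.p6), *Mknk2*, *Sh2b2* and *Prkar2b*; *Slc2a4* and *Insr* had no entry. Each is the 250 bases before a RefSeq start, 5′ to 3′ on the minus strand, which carries all 3 genes. They are chr10:80676294-80676543 for *Mknk2*, chr5:136244941-136245190 for *Sh2b2* and, for the farther upstream of its 2 listed starts, chr12:32061278-32061527 for *Prkar2b*. Capitals mark a GC box (GGGCGG or CCGCCC on the other strand) or an E-box (CACGTG).

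Mknk2: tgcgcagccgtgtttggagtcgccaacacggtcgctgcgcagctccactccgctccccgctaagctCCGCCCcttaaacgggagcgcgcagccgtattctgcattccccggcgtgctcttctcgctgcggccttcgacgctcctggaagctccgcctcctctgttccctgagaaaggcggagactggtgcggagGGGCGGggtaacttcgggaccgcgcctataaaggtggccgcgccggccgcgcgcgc

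Sh2b2: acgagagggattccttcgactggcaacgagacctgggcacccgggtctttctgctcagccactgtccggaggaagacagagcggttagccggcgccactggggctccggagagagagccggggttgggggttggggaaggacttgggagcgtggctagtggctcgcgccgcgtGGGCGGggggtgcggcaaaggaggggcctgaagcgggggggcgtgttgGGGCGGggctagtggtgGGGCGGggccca

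Prkar2b: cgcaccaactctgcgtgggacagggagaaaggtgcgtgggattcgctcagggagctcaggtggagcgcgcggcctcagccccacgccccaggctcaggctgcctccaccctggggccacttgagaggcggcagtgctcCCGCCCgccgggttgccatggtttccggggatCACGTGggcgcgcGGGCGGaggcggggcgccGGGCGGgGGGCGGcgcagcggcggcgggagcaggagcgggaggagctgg

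The 3 windows are rich in G and C, at 68.4%, 70.4% and 75.6%, and hold 2, 3 and 4 GC boxes, and that of *Prkar2b* also holds 1 E-box. The window of the other listed start of *Prkar2b* (chr12:32060590-32060839) holds 0 GC boxes and 0 E-boxes. Windows were searched on both strands for 5 motifs, chosen after expression values were seen, and 40 members had 59 windows in the table. A GC box, a common promoter element, was in 49.2% of the members' windows and in 32.7% of all 32851 windows of the table. The direct repeat DR1, which PPARγ binds together with RXR and which is AGGTCA repeated after any 1 base, was in 0 of the members' windows and in 0.0335% of all windows. Only the exact repeat was searched. At so low a share it would seldom be met in 59 windows, so that the 0 does not set the members apart. The half-site AGGTCA of DR1, which overlaps it, was in 11.9% of the members' windows and 14% of all. A CCAAT box (CCAAT) was in 27.1% and 33.8%, and the E-box in 6.78% and 6.02%. Several members have more than 1 window, so that these windows are not independent, and no half-site and no CCAAT box was in any of the 3 windows shown.

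*Mknk2* (ENSMUSG00000020190), which encodes MNK2, a kinase downstream of ERK and p38 that phosphorylates the cap-binding factor eIF4E, lies on the minus strand at chr10:80665327-80676293 (GRCm38). Its FPKM was 13.08, 22.88 and 24.66 with vehicle and 115.13, 109.19 and 103.18 with NJT-2. The groups did not overlap, and NJT-2 replicate 2 was level with the other NJT-2 libraries, unlike for most members. The rise was 4.95-fold (log2 fold change 2.31, standard error 0.30, adjusted p = 0.027, edgeR). Its size changed little between settings, from 2.2 to 2.48, while the adjusted p ran from 8.2e-14 in DESeq2 to 0.297. Leaving out a library, the call was kept without NJT-2 replicate 2 (adjusted p = 0.0213) and lost without vehicle replicate 1 (0.0679), 2 (0.297) or 3 (0.0751) and without NJT-2 replicate 1 (0.115) or 3 (0.104), in edgeR with 2 libraries in an arm.

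**Figure D2:**
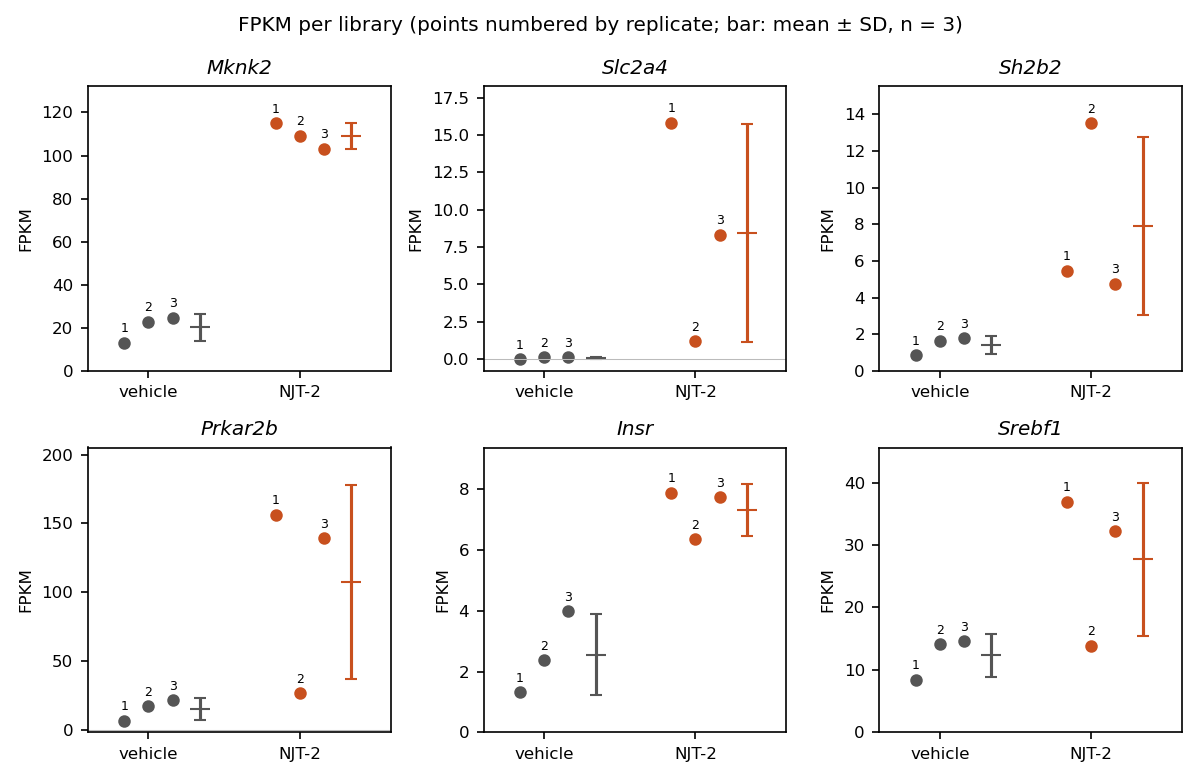
FPKM of 6 members in each library (vertical axis, linear and starting at or just below 0), with points numbered by replicate and a bar for the mean ± SD of 3 libraries, vehicle in grey and NJT-2 in orange. The groups of *Mknk2*, *Slc2a4*, *Sh2b2*, *Prkar2b* and *Insr* do not overlap, whereas NJT-2 replicate 2 of *Srebf1*, at 13.87, lies below vehicle replicates 2 and 3.

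The other members of the Ras-MAPK branch did not pass the limits, and their values lay on both sides. *Hras* (chr7:141189105-141194005), a Ras GTPase, had an FPKM of 32.16, 11.65 and 7.13 with vehicle and 5.84, 5.14 and 5.99 with NJT-2. The NJT-2 libraries were all below the vehicle libraries, of which vehicle replicate 1 was far the highest (log2 fold change -2, standard error 0.71, adjusted p = 0.229, edgeR). *Bad* (chr19:6941861-6951899), a pro-apoptotic protein that Akt phosphorylates, had 23.37, 14.24 and 8.93 against 8.21, 7 and 7.31, in the same order (log2 fold change -1.38, standard error 0.53, adjusted p = 0.254). Without vehicle replicate 1, the log2 fold changes of *Hras* and *Bad* were -0.74 and -0.63. *Map2k1*, which encodes the kinase MEK1, ranged from 5.76 in vehicle replicate 1 to 184.46 in NJT-2 replicate 2, with 47.93 and 64.11 in the other vehicle libraries and 34.09 and 36.31 in the other NJT-2 libraries. Both extremes came from the libraries that stood apart, and *Map2k1* differed by 1.17 on the log2 scale (standard error 0.90) over all libraries and -0.67 with 2 libraries a group. *Braf*, the gene of a kinase that activates MEK1, had 0.31, 1.24 and 2.64 FPKM with vehicle and 2.86, 2.66 and 3.07 with NJT-2. Vehicle replicate 3 was just below the lowest NJT-2 library (log2 fold change 1.02, standard error 0.56). The log2 fold change of *Braf* was 0.56 without vehicle replicate 1 and 1.72 without vehicle replicate 3. The related kinase gene *Araf* had a log2 fold change of -0.57, and *Elk1*, a transcription factor phosphorylated by ERK, 0.69. Of the 8 members of this branch, all tested, 5 were above 0, and besides *Mknk2* the groups did not overlap for *Braf*, *Hras* and *Bad*.

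At the cell surface, the receptor had more transcript in every NJT-2 library. *Insr* (ENSMUSG00000005534, chr8:3122061-3279617, minus strand), the insulin receptor, had 1.33, 2.37 and 3.98 FPKM with vehicle and 7.89, 6.35 and 7.74 with NJT-2. The lowest NJT-2 library was above the highest vehicle library, but the difference did not pass adjustment (log2 fold change 1.42, standard error 0.34, unadjusted p = 0.00356, adjusted p = 0.134 in edgeR, and from 0.0042 in DESeq2 to 0.416 over the alternatives). Over the alternatives the log2 fold change of *Insr* ran from 0.91 to 1.72, and the lower bound came from an offset for transcript length, chosen after the data were seen. The log2 fold changes of *Sos1*, the exchange factor that activates Ras, and of the Shc adaptor gene *Shc2* were 0.73 (standard error 0.48) and -0.35 (0.34). The groups overlapped for both. *Sos1* was at 0.37 without vehicle replicate 1 and at 1.3 without vehicle replicate 3. *Shc2* was at -0.16 without NJT-2 replicate 1 and at -0.65 without NJT-2 replicate 2.

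The branch through Cbl and lipid rafts had 8 members, all tested, of which 6 had a log2 fold change above 0 and none passed the limits. *Sh2b2* (ENSMUSG00000005057, chr5:136218147-136244903, minus strand) encodes APS, the adaptor that binds the active insulin receptor and recruits Cbl. Its FPKM was 0.86, 1.65 and 1.77 with vehicle and 5.47, 13.50 and 4.75 with NJT-2, so that the groups did not overlap and NJT-2 replicate 2 was the highest library. For *Sh2b2* this is a log2 fold change of 2.38 (standard error 0.51, with adjusted p = 0.1 in edgeR, and from 0.000556 in DESeq2 to 0.4 over the alternatives), from 1.57 with 2 libraries a group to 2.67 without NJT-2 replicate 3. *Cblb*, a ubiquitin ligase of the Cbl family, had 3.66, 6.65 and 10.35 FPKM with vehicle and 10.88, 27.99 and 14.40 with NJT-2. The gap between its groups was small and NJT-2 replicate 2 again the highest (log2 fold change 1.30, standard error 0.47, adjusted p = 0.236, edgeR). It was 0.73 without NJT-2 replicate 2 and 0.57 with 2 libraries a group. The adaptors *Crk* and *Crkl* had 0.68 and 0.76, *Rhoq*, the gene of TC10, 0.77, its effector *Trip10* -0.12 and *Exoc7*, a subunit of the exocyst that tethers vesicles to the membrane, -0.69, all with overlapping groups. *Crk* was at 2.29 FPKM in vehicle replicate 1 and between 22.29 and 31.90 in all others. The log2 fold changes of *Crk*, *Crkl*, *Rhoq* and *Exoc7* were 0.15, 0.43, 0.41 and -0.25 without vehicle replicate 1. Leaving out vehicle replicate 3 instead, they were 1.2, 1.14, 1.01 and -0.94.

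Neither *Akt1* nor *Akt2* differed between the groups by more than the replicate error. *Akt1* (ENSMUSG00000001729, chr12:112653821-112674884), the more abundant of this pair per length, had 21.35, 53.30 and 48.86 FPKM with vehicle and 45.06, 21.32 and 46.29 with NJT-2. By FPKM, vehicle replicate 1 and NJT-2 replicate 2 were alike and low, the other libraries alike and high. On the TMM-scaled counts behind edgeR's value, vehicle replicate 1 lay between NJT-2 replicate 2 and the others (log2 fold change -0.25, standard error 0.38, adjusted p = 0.717, edgeR). *Akt2* (ENSMUSG00000004056, chr7:27591552-27640826), the isoform needed for insulin-stimulated glucose uptake in fat, had 10.33, 13.34 and 12.79 against 20.63, 9.80 and 18.55. NJT-2 replicates 1 and 3 were above every vehicle library and NJT-2 replicate 2 below them all (log2 fold change 0.23, standard error 0.34, adjusted p = 0.709, edgeR). The sign of both values turned in an alternative, to 0.01 for *Akt1* without NJT-2 replicate 2 and to -0.02 for *Akt2* with the length offset. In the other direction, *Akt2* was at 0.47 without NJT-2 replicate 2 and at 0.58 with 2 libraries a group (adjusted p = 0.0695, edgeR). *Pdpk1*, the gene of PDK1, the kinase that activates Akt, had 0.26, 2.52 and 5.48 FPKM with vehicle and 5.94, 9.30 and 5.82 with NJT-2. Its groups did not overlap, by a narrow gap, and vehicle replicate 1 was very low (log2 fold change 1.39, standard error 0.78, adjusted p = 0.349, edgeR). It was 0.84 without vehicle replicate 1 and 2.27 without vehicle replicate 3.

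The 4 analysed genes that restrain insulin signaling were split, with no unadjusted p under 0.05. *Mapk8* and *Mapk9*, the JNK kinases that phosphorylate docking proteins, had log2 fold changes of 0.90 (standard error 0.42) and 0.29 (0.38). *Inpp5k*, a phosphatase that removes the lipid product of PI3-kinase, had -0.18 (0.38), and *Socs2*, of a family of inhibitors of cytokine and receptor signaling, -0.25 (0.37). The groups were without overlap for *Mapk8*, at 0.86 to 3.07 FPKM with vehicle and 3.17 to 5.39 with NJT-2, and its log2 fold change was 0.55 without NJT-2 replicate 2.

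In the mTORC1 branch, which couples insulin to protein synthesis, the groups overlapped for all 4 members. *Rps6kb1* and *Rptor*, the genes of S6 kinase 1 and of the mTORC1 subunit raptor, had log2 fold changes of 0.65 (standard error 0.46) and 0.25 (0.32). *Rps6kb2*, the gene of S6 kinase 2, had -0.65 (0.40) and *Tsc2*, the gene of the mTORC1 inhibitor tuberin, -0.74 (0.46). The *Tsc2* value was -0.14 without vehicle replicate 1, -0.01 with 2 libraries a group and -1.3 with the length offset. *Rps6kb1* and *Rps6kb2* were at 0.26 and -0.33 without vehicle replicate 1, and at 1.04 and -0.87 without vehicle replicate 3. *Rptor* ran from 0.11 to 0.41 on leaving out a library. Adjusted p values of the 4 were 0.375 to 0.669 in edgeR over all 6 libraries, and the lowest over the alternatives was 0.196, for *Rps6kb1* without vehicle replicate 3.

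The glycogen branch had 7 members, of which 6 were tested and 5 were above 0. *Gsk3b* (chr16:38089001-38246084), the kinase that holds glycogen synthase inactive until insulin inhibits it, had 1.29, 4.47 and 7.96 FPKM with vehicle and 9.04, 24.71 and 8.88 with NJT-2. NJT-2 replicates 1 and 3 lay just above vehicle replicate 3, and NJT-2 replicate 2 far above (log2 fold change 1.64, standard error 0.64, adjusted p = 0.254, edgeR). Without NJT-2 replicate 2 it was 0.89, and 0.53 with 2 libraries a group. *Ppp1cb*, a catalytic subunit of the phosphatase that activates glycogen synthase, had 2.42, 11.21 and 14.64 FPKM with vehicle and 15.41, 17.27 and 14.97 with NJT-2. Its groups did not overlap, with vehicle replicate 3 just below the NJT-2 libraries (log2 fold change 0.73, standard error 0.49, and 0.31 without vehicle replicate 1). The catalytic subunit gene *Ppp1cc* had a log2 fold change of 0.41 (0.39), and the liver-type glycogen phosphorylase *Pygl* 0.51 (0.44). *Calm3*, which encodes calmodulin, a subunit of phosphorylase kinase, had -0.43 (0.32). *Ppp1cc* was at 0.12 without vehicle replicate 1 and at 0.58 without vehicle replicate 3. *Calm3* was at -0.33 without vehicle replicate 2. With 2 libraries a group it was at -0.74 (adjusted p = 0.0359, edgeR), short of the fold limit.

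In the cAMP branch, which bears on protein kinase A, no member passed the limits. *Prkar2b* (ENSMUSG00000002997, chr12:31958476-32061296, minus strand), the regulatory subunit RIIβ that predominates in adipose tissue, had 6.54, 16.92 and 21.59 FPKM with vehicle and 156.54, 26.30 and 139.19 with NJT-2. NJT-2 replicate 2 was only a little above vehicle replicate 3, and the other NJT-2 libraries were far above every vehicle library. On the log2 scale *Prkar2b* differed by 2.73 (standard error 0.66), and its adjusted p was 0.134 in edgeR, and from 0.00055 in DESeq2 to 0.414 over the alternatives. Without NJT-2 replicate 2 *Prkar2b* was called in edgeR (log2 fold change 3.18, adjusted p = 0.0276), where 1.51% of all tested genes were called higher. *Prkar1a*, the regulatory subunit found in most tissues, had 46.52, 83.73 and 92.49 FPKM with vehicle and 71.58, 50.25 and 74.69 with NJT-2. Its groups overlapped (log2 fold change -0.31, standard error 0.30, adjusted p = 0.561, edgeR), as did those of the catalytic subunits *Prkaca* and *Prkacb*, at 0.12 (0.32) and 0.50 (0.55). *Prkacb* was at 0.03 without vehicle replicate 1 and at 1.1 without vehicle replicate 3.

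Of the 5 metabolic targets, 2 were tested. *Slc2a4* (ENSMUSG00000018566, chr11:69942539-69948175, minus strand), the gene of GLUT4, was listed at 0, 0.13 and 0.12 FPKM with vehicle and 15.82, 1.19 and 8.33 with NJT-2. Every NJT-2 library was above every vehicle library, and their counts were unequal, at 3907, 291 and 2029 counts. This gave 6.49 on the log2 scale (standard error 1.35, adjusted p = 0.0933, edgeR), and the fit with the replicate number as a block called it (adjusted p = 0.0226, in a range from 9.8e-08 in DESeq2 to 0.378 over the alternatives, with 1.16% of all tested genes called higher). *Slc2a4* entered the test through the NJT-2 group alone (mean 8.45 FPKM, against 0.0833 with vehicle), which holds for no other tested member, so that its p and its calls are no independent support, and it is among the counts of members given above. The size of this difference rests on vehicle values near 0 and ran from 2.7 in limma on log2(FPKM + 1) to 6.98 without NJT-2 replicate 2. *Srebf1* (chr11:60199089-60222581), the gene of SREBP1, which turns on fatty acid synthesis genes in response to insulin, had 8.42, 14.14 and 14.57 with vehicle and 36.96, 13.87 and 32.24 with NJT-2. NJT-2 replicates 1 and 3 were above every vehicle library and NJT-2 replicate 2 was not (log2 fold change 1, standard error 0.39, adjusted p = 0.253, edgeR). With 2 libraries a group, *Mknk2*, *Slc2a4*, *Sh2b2*, *Prkar2b*, *Insr* and *Srebf1* were called higher in edgeR, at adjusted p values from 0.00151 to 0.0266, where 6.88% of all tested genes were. That fit rests on NJT-2 replicates 1 and 3, which were closer to each other (chi-square per gene 48.4) than any other pair of libraries (at least 389), and whether they are separate cultures is not in the labels.

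The 6 members outside the test were at very low levels. The phosphorylase kinase subunit *Phkg1* had 37 to 136 counts in every library and at most 0.29 FPKM, and the adaptor *Shc3* 0 to 159 counts. *Hkdc1*, a hexokinase-like gene, reached 57 counts in NJT-2 replicate 2. *G6pc2*, a glucose-6-phosphatase gene, was counted in NJT-2 replicate 2 alone, with 27 counts, and *Prkag3*, an AMP kinase subunit, likewise with 4. *Fbp2*, a fructose bisphosphatase gene, had 4 counts in NJT-2 replicate 3 and 0 elsewhere. No comparison is made for these.

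**Figure D3:**
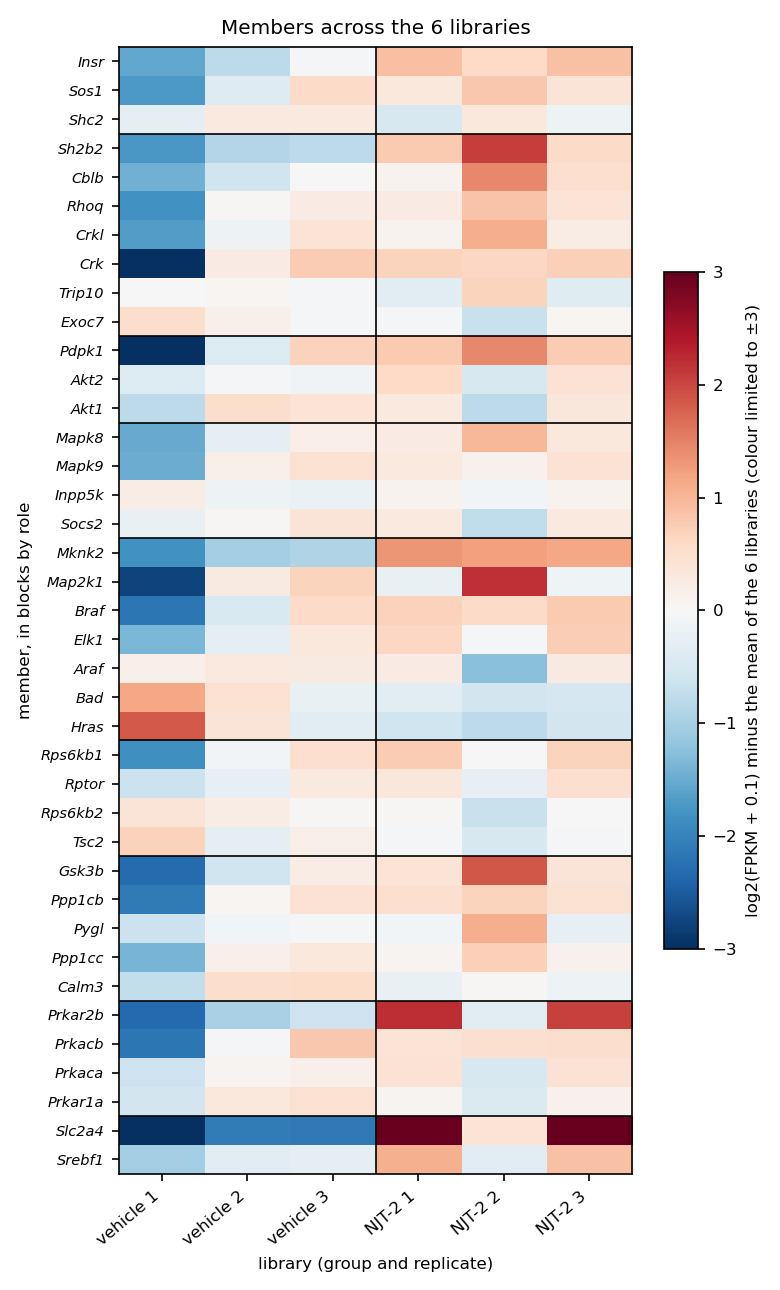
Log2(FPKM + 0.1) of 39 tested members (rows, in blocks by role) in the 6 libraries (columns), as the difference from the mean of that member over the 6 libraries, with blue below and red above and the colour limited to ± 3. Vehicle replicate 1 is the lowest of the vehicle libraries for 32 of the 39, and NJT-2 replicates 1 and 3 are within 1.5 times of each other for 38.

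The 2 libraries that stood apart touched members in different ways, in counts by FPKM chosen after the values were seen. NJT-2 replicates 1 and 3 were within 1.5 times of each other for 42 of the 43 tested members (94.7% of all tested genes). NJT-2 replicate 2 was over 1.5 times both of them for 10 members (19.2%), among them *Sh2b2*, *Cblb*, *Gsk3b* and *Map2k1*, and under both by the same factor for 15 (31.4%), among them *Slc2a4*, *Prkar2b*, *Srebf1*, *Akt1* and *Akt2*. Vehicle replicate 1 was above both other vehicle libraries for 6 members (23.4%), among them *Hras* and *Bad*. Taken as log2 differences from the vehicle mean on TMM-scaled counts, the members had a median of -0.40, 0.03 and 0.38 with vehicle and 0.39, 0.62 and 0.48 with NJT-2. By this median vehicle replicate 3 lay beside NJT-2 replicate 1, though over all genes its counts were nearest to vehicle replicate 2 (chi-square per gene 389, against 943 for NJT-2 replicate 1). The same median over all tested genes stayed between -0.02 and 0.03.

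The members have longer transcripts than the rest of the table, with a median of 4150 bases for the longest annotated transcript against 3310 for all tested genes (GENCODE M21). Over the 43 members, longer transcripts went with lower values in vehicle replicate 1 relative to vehicle replicates 2 and 3 (Spearman correlation -0.38) and with higher log2 fold changes (0.33), and over all 3705 tested genes these were -0.41 and 0.37. They are descriptions across genes of the same libraries. Over the members, each library's own correlation with length was -0.35, -0.48 and 0.33 with vehicle and 0.34, 0.24 and 0.39 with NJT-2. The downward trend was therefore not particular to vehicle replicate 1, and vehicle replicate 2 had it too. The 22 members of at least 4151 bases had a median log2 fold change of 0.73 and the 21 others 0.12, against 0.38 and -0.18 for all tested genes divided at the same length. With an offset for each library's trend with length, the members' median was 0.44 and that of all tested genes 0.03, 6 of the 43 members were higher at an unadjusted p under 0.05 (9.23% of all tested genes, against 8 members and 8.04% without the offset), and *Mknk2* kept its call (log2 fold change 2.28, adjusted p = 0.0276, edgeR). Of the 8 members higher at an unadjusted p under 0.05, *Mknk2*, *Slc2a4*, *Sh2b2* and *Prkar2b* have transcripts of 3439, 3193, 2848 and 3378 bases, below the members' median, and *Srebf1*, *Cblb*, *Gsk3b* and *Insr* have 4299, 6648, 8303 and 9355 bases, above it. With the offset the log2 fold changes of the longer 4 were 0.82, 0.88, 1.23 and 0.91, each below its value without it, and those of the shorter 4 were 2.28, 6.51, 2.5 and 2.72.

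**Figure D4:**
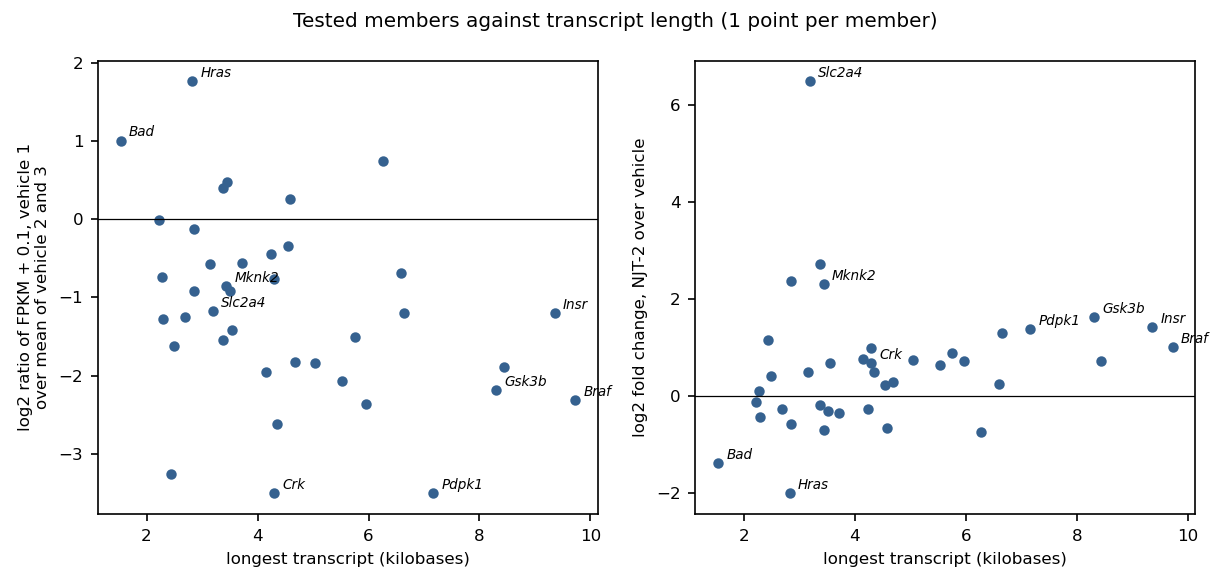
Each of 39 tested members against its longest transcript in kilobases (horizontal axis), with the log2 ratio of vehicle replicate 1 to the mean of vehicle replicates 2 and 3 (FPKM + 0.1) on the left and the log2 fold change of NJT-2 over vehicle on the right. The left points slope down (Spearman correlation -0.38 over these 39) and the right points up (0.34), while *Slc2a4* and *Mknk2* lie high on the right among the shorter transcripts.

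Within families of members that share a role, the balance of FPKM between genes was set side by side, as a description chosen after the values were seen and over the genes analysed here alone. *Prkar2b* made up 12.3%, 16.8% and 18.9% of the summed *Prkar1a* and *Prkar2b* FPKM with vehicle and 68.6%, 34.4% and 65.1% with NJT-2. The groups did not overlap, and *Prkar2b* was the minor transcript of the pair with vehicle and the major one in NJT-2 replicates 1 and 3. *Rps6kb1* made up 27.2%, 59.8% and 71.6% of the S6 kinase sum with vehicle and 75.1%, 74.5% and 74.4% with NJT-2, so that the NJT-2 libraries were alike and the vehicle libraries spread widely below them. Both S6 kinase genes share exon bases with a gene on the other strand. *Mapk8* made up 20.6%, 16.8% and 18.8% of the *Mapk8* and *Mapk9* sum with vehicle and 21.2%, 34.2% and 20.3% with NJT-2, so that NJT-2 replicate 2 was high and the others alike. *Crk* made up 52.9%, 78.7% and 77.8% of the *Crk* and *Crkl* sum with vehicle and 80.3%, 66.5% and 79.8% with NJT-2, where the libraries that stood apart were the lowest in each group.

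**Figure D5:**
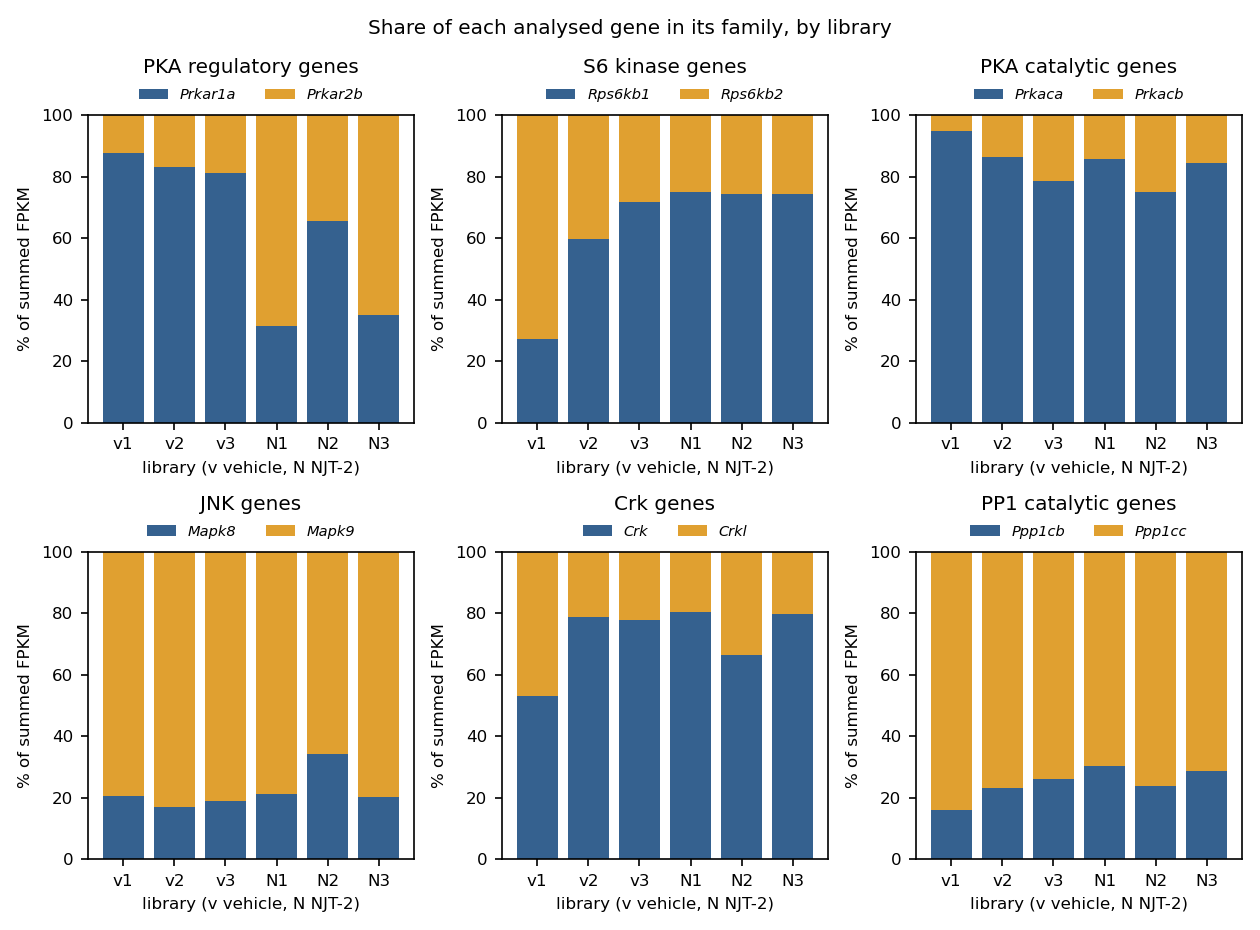
Share of each analysed gene in the summed FPKM of its family (vertical axis, percent) in each library, for 6 families, with v1 to v3 for vehicle and N1 to N3 for NJT-2 replicates. The *Prkar2b* share is between 12.3% and 18.9% with vehicle and between 34.4% and 68.6% with NJT-2, and the *Rps6kb1* share is between 27.2% and 71.6% with vehicle and between 74.4% and 75.1% with NJT-2.

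Per length, the most abundant of the members reported with vehicle were *Calm3* at a mean of 93.8 FPKM, *Prkar1a* at 74.2, *Akt1* at 41.2, *Map2k1* at 39.3 and *Ppp1cc* at 30.7. With NJT-2 they were *Mknk2* at 109, *Prkar2b* at 107, *Map2k1* at 85, *Calm3* at 74.2 and *Prkar1a* at 65.5, with the *Prkar2b* and *Map2k1* means made up of very unequal libraries. With vehicle, *Mknk2* (20.2 ± 6.24, SD, n = 3) lay well below *Calm3* (93.8 ± 39.5) and *Prkar1a* (74.2 ± 24.4). With NJT-2 (109 ± 5.98) it lay above both (74.2 ± 7.60 and 65.5 ± 13.3) in every library. Of the 49 members, 16 share exon bases with another annotated gene, 10 of them with a protein-coding gene on the opposite strand, among them *Braf*, *Srebf1*, *Rhoq* and *Bad*. The libraries were made with a strand-marking kit and the use of strand in counting is not given in the sources used here, so that for these genes reads of the neighbour may be included. *Mknk2*, *Slc2a4*, *Sh2b2*, *Prkar2b* and *Insr* are not among the 16.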

How the data were processed

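RNA-seq of differentiated ADSC cultures was deposited as 1 table for all 6 libraries. The authors trimmed reads with cutadapt 1.9 and aligned them to GRCm38 with HISAT2 2.2.1, and the submitters' processing notes also name StringTie 2.1.6, DESeq2 and edgeR. The deposited raw counts per gene were not normalized by the authors. The deposited FPKM values, which the authors computed per gene length and library total, were used for levels. The counting tool and annotation release are not given in the sources used here.

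The table as analysed has 4865 lines, of which 4864 are complete. Counts were tested in R 4.3.3 with edgeR 4.0.16 (quasi-likelihood test, TMM factors, 3705 genes whose mean FPKM reached 0.5, two-sided, Benjamini-Hochberg adjustment over all of them). Calls needed an adjusted p below 0.05 and a log2 fold change beyond 1 in either direction. The method was tested on simulated data. Alternatives were DESeq2 1.42.0, other size factors and filters, limma 3.58.1 on log2(FPKM + 1) and log2(FPKM + 0.1), a replicate block, leaving out each library and, added after seeing the data, 2 libraries a group and a transcript length offset. The members, the role and marker lists and the genes described were chosen with earlier results of these data known. The values of 4 tested members are not reported here, though counts and medians over the members include them. The others are all named, with those of an unadjusted p under 0.05, without overlap or set out for interest given with their values in each library or their range. No 2 libraries were alike within sampling noise (lowest chi-square per gene 48.4, between NJT-2 replicates 1 and 3, and at least 389 for every other pair). A permutation test of 3 against 3 libraries cannot go below p = 0.1 and was not used.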

Additional observations from a re-analysis of the deposited data

How the results depend on the processing

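Over 16 alternatives, 588 of 624 log2 fold changes of the 39 tested members reported kept their direction and side of the limits. Only *Mknk2* was called over all 6 libraries, so that any other member could change side only by a new call. A value that shrank was also counted as kept, such as *Tsc2*, at -0.74 over all libraries and -0.01 with 2 libraries a group. The count is therefore no measure of how steady the sizes were. Called members numbered 1 higher and 0 lower, and 5 higher in DESeq2, 2 with the replicate block and 6 with 2 libraries a group, with 0 to 2 on leaving out a library and 0 lower in all of these. Members higher at an unadjusted p under 0.05 numbered 8, and 5 to 13 on leaving out a library (13 without vehicle replicate 3, with 12.1% of all tested genes, and 5 without vehicle replicate 1 or 2, with 6.75% and 4.24%). Members lower numbered 2, and 1 in both limma fits (5.99% and 5.86% of all tested genes, against 9.72%) and with the length offset (9.04%), and 0 to 2 on leaving out a library (0 without NJT-2 replicate 1 or 3, with 4.56% and 4.59% of all tested genes). The median log2 fold change of 0.51 was 0.68 and 0.88 in limma on log2(FPKM + 1) and log2(FPKM + 0.1), 0.72 with the replicate block, 0.18 with 2 libraries a group, and 0.26 (without vehicle replicate 1) to 0.89 (without vehicle replicate 3) on leaving out a library. Members without overlap, 11 higher and 2 lower, were 20 and 10 with 2 libraries a group (31.7% and 32.2% of all tested genes), and 11 to 20 and 2 to 5 on leaving out a library, where fewer libraries make an overlap less likely and the shares of all tested genes were 15.1% to 29.2% and 12% to 21.5%. The cause of the other differences was not tested.

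Direction turned in 20 values of 11 members, none of them called. With 2 libraries a group these were *Ppp1cc* (-0.13), *Map2k1* (-0.67), *Inpp5k* (0.30), *Socs2* (0.07) and *Pygl* (-0.10). With the length offset they were *Akt2* (-0.02), *Trip10* (0.17) and *Rptor* (-0.17), and in limma *Inpp5k* (0.08 and 0.09). On leaving out a library, values ran from -0.47 to 0.01 for *Akt1*, -0.20 to 1.65 for *Map2k1*, -0.01 to 0.34 for *Prkaca*, -0.38 to 0.23 for *Inpp5k*, -0.61 to 0.10 for *Trip10*, -0.41 to 0.01 for *Socs2*, -0.05 to 0.53 for *Mapk9* and -0.12 to 0.77 for *Pygl*.

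Whether replicate numbers pair the libraries is not in the labels. Correlations of same-numbered deviations from the group means were 0.179, 0.032 and -0.207, and vehicle replicate 3 correlated best with NJT-2 replicate 2 (0.223). These values cannot decide it, as they rest on 3 libraries a group, with a library in each that stood apart. The replicate block took called members from 1 to 2, adding *Slc2a4*. The 6 untested members fell under the mean FPKM of 0.5, and the call of *Mknk2* was lost on leaving out any 1 library other than NJT-2 replicate 2.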
